A study of Mus musculus with 6 samples.

Results

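The enzymes that make arginine and turn it into ornithine and polyamines were followed in NSC-34 cells, a motor neuron-like line of the mouse, after knockdown of *Qk*. The group holds 10 genes of the 23038 listed in the files, chosen by symbol, of which 9 are described: *Ass1*, *Gm5424*, *Asl*, *Odc1*, *Amd1*, *Srm*, *Sms*, *Sat1* and *Oat*. It was put together with the siQk to siNC differences of these libraries known, so those differences are given as a description of these libraries, and the calls of the tests over all genes are counted for them without being read as support. All 9 genes were found in each file, and all 9 passed the filter on low values.

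The cells were grown in serum-containing medium and transfected with siRNA, either a control (siNC, 3 libraries) or against *Qk* (siQk, 3 libraries), and were collected 72 hours later. *Qk* encodes the Quaking RNA-binding proteins. 3 different siRNAs against *Qk* were used, and the siQk libraries are numbered 1 to 3, so the spread between them may hold differences between siRNAs as well as between cultures. NSC-34 is a single immortal line, a hybrid of neuroblastoma and embryonic spinal cord cells, so the libraries come from cultures of that line and not from separate animals.

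Arginine is built from citrulline in a pair of steps. *Ass1* joins citrulline to aspartate, and *Asl* splits the product into arginine and fumarate. In liver these steps belong to the urea cycle, whereas in neurons and most other cells they recycle the citrulline left by nitric oxide synthesis. Arginine can be turned into ornithine, which is either decarboxylated to putrescine, the first polyamine, or passed on towards glutamate and proline. Polyamines are small positively charged molecules that bind RNA, and cells hold their level within narrow limits.

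*Ass1* (Entrez 11898, GRCm38 chromosome 2, 31470207 to 31520672, plus strand) and *Gm5424* (Entrez 432466, chromosome 10, 62071123 to 62072362, plus strand) had to be read together. *Gm5424* is annotated as a processed pseudogene, an intron-free copy of the *Ass1* mRNA within 1 exon. The annotated *Gm5424* transcript of 1240 bases aligned over its whole length to bases 203 to 1442 of Ass1-201, the protein-coding *Ass1* transcript of 1696 bases and 16 exons. The alignment held 0 gap bases, was 99.5% identical and ran across 13 exon junctions of *Ass1*. It took in the whole *Ass1* coding sequence (bases 203 to 1438), with 6 substitutions, all of them coding. Counted from 1 at the 5′ end of Ass1-201, with the *Ass1* base first and the *Gm5424* base last, these were T601C, T631C, A722T, G858C, T1213C and C1345T. The stretch that holds the first 3 of them is shown because it holds the closest-spaced differences between the loci, with the differing bases in capitals. The *Ass1* stretch is bases 593 to 722 of the transcript, spliced from exons 6 to 8 (GRCm38, chr2:31486516-31492338, plus strand), and the *Gm5424* stretch is bases 391 to 520 of its single exon (GRCm38, chr10:62071513-62071642, plus strand). Both come from GENCODE release M21.
Ass1: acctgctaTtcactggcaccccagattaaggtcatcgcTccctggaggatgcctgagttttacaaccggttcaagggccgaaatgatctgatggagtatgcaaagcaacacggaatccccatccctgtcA
Gm5424: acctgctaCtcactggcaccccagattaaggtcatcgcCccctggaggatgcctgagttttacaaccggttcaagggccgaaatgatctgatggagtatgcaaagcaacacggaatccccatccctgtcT

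A read of 75 bases, the length the study used, could therefore often match both loci. Of the 1622 windows of 75 bases in Ass1-201, 761 (46.9%) occurred without a mismatch in *Gm5424*, and these made up 65.3% of the 1166 windows of *Gm5424*. The longest stretch with no substitution was 398 bases. The files counted *Ass1* over 478 bases, 28.2% of Ass1-201, and *Gm5424* over 1127 bases, 90.9% of its transcript. Ass1-201 has 456 bases outside the alignment. Which bases made up the 478, and how reads that match both loci were assigned, is not given in the sources used here. The counts of both genes were whole numbers in all 6 libraries, where 21.83% to 22.85% of listed genes had counts that were not whole. Over the shared stretches a single read cannot tell transcripts of the intron-free copy from those of *Ass1*. The reads were sequenced in pairs, and what a mate outside a shared stretch adds was not examined. Windows that hold a substitution do differ between the loci, so the values of each gene below are the files' own division of these reads.

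**Figure D1:**
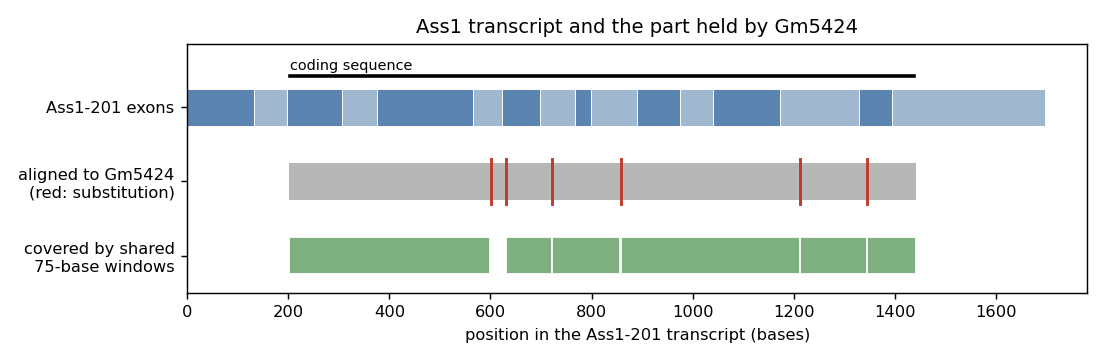
The x axis is the position in the Ass1-201 transcript in bases. The upper row shows its 16 exons with the coding sequence as a black line, the middle row the 1240 bases aligned to Gm5424 with the 6 substitutions in red, and the lower row the bases covered by 75-base windows that also occur in Gm5424. The 5′ and 3′ ends of Ass1, the substituted bases and the short gap between the first pair of substitutions lie outside such windows.

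The target gene was examined first. *Qk* stood at 9.67, 8.18 and 14.9 RPKM (expected counts scaled to exon length and library total) in siNC replicates 1 to 3, and at 1.39, 1.71 and 1.10 RPKM in siQk replicates 1 to 3. All 3 siQk libraries lay below all 3 siNC libraries, and the log2 fold change was -3.0 (SE 0.34, n = 3 per group, edgeR quasi-likelihood adjusted p 0.0149). Without siNC replicate 1 it was -3.1, and the adjusted p of that test was 0.125. Library totals ran from 43000503 to 53565950 expected counts. siNC replicate 3 and siQk replicate 2 lay farthest from the others on the second and the first principal component. Of 12 neuronal markers 9 had a mean above 1 RPKM, with *Prph* at 421 to 949 and *Tubb3* at 142 to 349 RPKM. The motor neuron markers *Mnx1* (at most 0.0944 RPKM), *Chat* (at most 0.141) and *Slc5a7* (at most 0.0238) were close to 0, while *Slc18a3* was at 1.56 to 2.29 RPKM. *Isl1*, a motor neuron transcription factor, was at 4.75 to 4.83 RPKM in siNC and at 7.80 to 9.63 RPKM in siQk, without overlap. It differed by 0.82 on the log2 scale (SE 0.097, adjusted p 1.0 and unadjusted p 0.0010 in edgeR), and its part in the results below was not tested. All 7 neuroblastoma markers were above 1 RPKM on average. Markers of astrocytes, microglia and fibroblasts were low in both groups. Summed over 4 genes each, astrocyte markers reached at most 0.218 RPKM, microglial markers 0.222 and fibroblast markers 5.65 (mostly *Pdgfra*). The sum for hepatocyte markers, of cells that run the full urea cycle, was at most 11.2 RPKM, of which *Ttr* made up nearly all, and *Alb* did not exceed 0.0413 RPKM.

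Of the 9 genes, 0 were called changed in siQk, where the edgeR quasi-likelihood test over 12665 genes called 1 gene, *Qk*, or 0.00790% (p under 0.01 and adjusted p under 0.1). DESeq2 called 19 genes (0.150%), among them *Gm5424* as the 1 gene of the group, and the edgeR exact test called 5 genes (0.0395%) and 0 of the group. All 3 siQk libraries lay below all 3 siNC libraries for 2 of the 9 genes, *Ass1* and *Gm5424*, and above them for 1, *Oat*. Over all genes tested, 4.07% lay below and 4.45% above in this way, 8.52% in either direction. These 3 genes were also those at an unadjusted p under 0.05 in the edgeR quasi-likelihood test, beside 2.89% of all genes tested. Because the group was chosen with these differences known, nothing is read from the counts. Fold changes over the 9 genes ran from -0.77 to 0.40 on the log2 scale, with a median of 0.047 beside 0.0034 over all genes tested.

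*Ass1* was measured at 62.0, 67.5 and 67.9 RPKM in siNC replicates 1 to 3 and at 46.7, 43.5 and 42.9 RPKM in siQk replicates 1 to 3. The groups did not overlap, and the highest siQk library stood well below the lowest siNC library. The means were 65.8 ± 3.27 (SD, n = 3) in siNC and 44.4 ± 2.03 in siQk, or 67.5% of siNC. The log2 fold change was -0.59 (SE 0.067). In bulk RNA, fewer cells expressing a gene and less of its RNA per cell cannot be told apart. These levels rest on 946 to 1528 counts per library.

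*Gm5424* was measured at 86.2, 93.0 and 119 RPKM in siNC replicates 1 to 3 and at 61.7, 59.2 and 57.0 RPKM in siQk replicates 1 to 3. The siQk libraries were tightly grouped and all lay below siNC, among which replicate 3 stood highest. The means were 99.3 ± 17.1 RPKM and 59.3 ± 2.38 RPKM (SD, n = 3), or 59.7% of siNC, with a log2 fold change of -0.77 (SE 0.17). Without siNC replicate 3 the log2 fold change was -0.59, beside -0.54 for *Ass1* in the same fit.

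The counts of both genes were lower in every siQk library than in any siNC library. Within siNC the unscaled counts moved apart in replicate 3, with the lowest of *Ass1* (1395) and the highest of *Gm5424* (5748). *Gm5424* had 3.28, 3.25 and 4.12 times the expected counts of *Ass1* in siNC replicates 1 to 3, and 3.11, 3.21 and 3.13 times in siQk replicates 1 to 3. In 5 of the 6 libraries the ratio thus lay between 3.11 and 3.28, and siNC replicate 3 stood alone above them. The siQk ratios all lay below the siNC ratios, though 3.21 in siQk was close to 3.25 in siNC. Since the pair shares sequence, the closeness of the ratio in those 5 libraries is not evidence from independent genes. The pair was also fitted as 1 gene with summed counts, which does not depend on how reads were divided between the loci but does not restore reads that were dropped or counted at both. The summed counts, scaled to library size as CPM, were 127, 137 and 166 CPM in siNC replicates 1 to 3 and 91.9, 87.6 and 84.7 CPM in siQk replicates 1 to 3. Again the groups did not overlap, and the summed gene had a log2 fold change of -0.73 (SE 0.14). It was not called either.

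*Asl* (Entrez 109900, chromosome 5, 130011258 to 130029247, minus strand), the enzyme after *Ass1*, showed no such pattern. It was measured at 210, 171 and 102 RPKM in siNC replicates 1 to 3 and at 187, 163 and 160 RPKM in siQk replicates 1 to 3. siNC replicate 3 had the lowest value and siNC replicate 1 the highest, so the siQk libraries all fell inside the siNC range. The log2 fold change was 0.057 (SE 0.30), and it was -0.17 without siNC replicate 3 and -0.018 without siQk replicate 1. No window of 75 bases of *Asl* occurred in another annotated transcript.

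**Figure D2:**
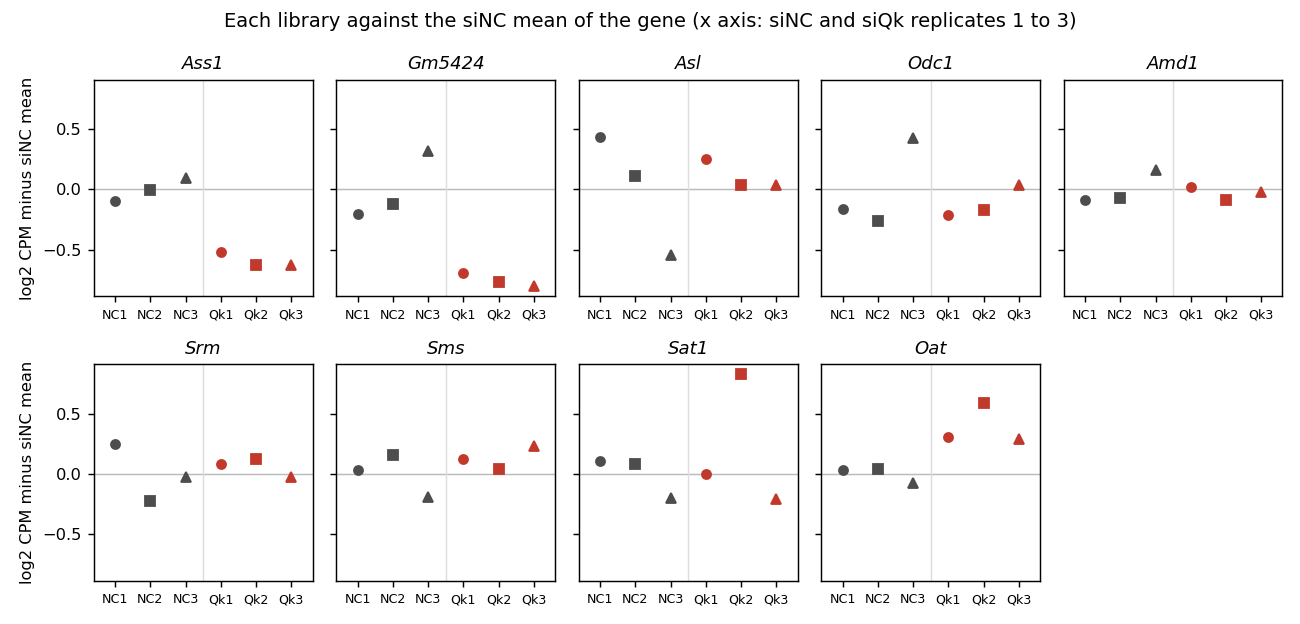
Each panel is a gene, with libraries on the x axis (siNC and siQk replicates 1 to 3) and the log2 CPM of each library minus the siNC mean of that gene on the y axis. Ass1 and Gm5424 have all siQk libraries below siNC and Oat has all above, while Asl and Odc1 have siNC replicate 3 apart from the other 5 libraries and Sat1 has siQk replicate 2 apart.

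*Odc1* (Entrez 18263, chromosome 12, 17544794 to 17551505, plus strand) encodes ornithine decarboxylase, the first and rate-limiting enzyme of polyamine synthesis. It was measured at 201, 191 and 289 RPKM in siNC replicates 1 to 3 and at 196, 203 and 232 RPKM in siQk replicates 1 to 3. siNC replicate 3 was the highest library, opposite to its place for *Asl*, and the groups overlapped. The log2 fold change was -0.14 (SE 0.23), and 0.10 without siNC replicate 3. Of the 75-base windows of *Odc1*, 30.5% occurred in other annotated loci, 13 in all and mostly processed pseudogenes.

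*Amd1* (Entrez 11702, chromosome 10, 40287458 to 40302186, minus strand) makes decarboxylated S-adenosylmethionine, the donor of the aminopropyl groups that lengthen polyamines. Its levels were close in all libraries, at 20.7, 21.5 and 23.6 RPKM in siNC replicates 1 to 3 and 22.6, 21.1 and 21.8 RPKM in siQk replicates 1 to 3. The siQk values lay inside the siNC range, with a log2 fold change of -0.033 (SE 0.086) that was 0.051 without siNC replicate 3. Its sequence is also copied elsewhere, since 79.6% of its 75-base windows occurred in *Amd2*, a near-identical protein-coding copy. *Amd2* was counted over 360 bases with 21 to 39 counts per library, and how reads that match both were assigned is not given in the sources used here.

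*Srm* (Entrez 20810, chromosome 4, 148591503 to 148594993, plus strand) and *Sms* (Entrez 20603, chromosome X, 157443855 to 157492287, minus strand) encode spermidine synthase and spermine synthase, which add those groups in turn. *Srm* was measured at 230, 169 and 182 RPKM in siNC replicates 1 to 3 and at 206, 214 and 190 RPKM in siQk replicates 1 to 3. *Sms* was measured at 13.2, 14.6 and 10.8 RPKM in siNC replicates 1 to 3 and at 14.1, 13.5 and 15.2 RPKM in siQk replicates 1 to 3. Both overlapped between groups. Their log2 fold changes were 0.047 (SE 0.15) for *Srm*, turning to -0.066 without siNC replicate 2, and 0.13 (SE 0.11) for *Sms*, which was 0.040 without siNC replicate 3. Of the 75-base windows of *Sms*, 28.2% occurred in 4 other loci, all processed pseudogenes and mainly *Sms-ps*, whereas none of *Srm* did. Per length, the lowest *Srm* level (169 RPKM) was far above the highest *Sms* level (15.2 RPKM).

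*Sat1* (Entrez 20229, chromosome X, 155213132 to 155216449, minus strand) encodes the acetyltransferase that marks spermidine and spermine for export or breakdown. It was at 9.44, 9.47 and 7.29 RPKM in siNC replicates 1 to 3 and at 8.81, 15.8 and 7.58 RPKM in siQk replicates 1 to 3. siQk replicate 2 stood alone above the other libraries. The log2 fold change of 0.27 (SE 0.33) was -0.11 without that library. Of its 75-base windows 2.67% occurred in 2 processed pseudogenes.

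*Oat* (Entrez 18242, chromosome 7, 132557478 to 132576398, minus strand) encodes ornithine aminotransferase, the mitochondrial enzyme that takes ornithine towards glutamate and proline. It was measured at 81.3, 83.3 and 72.3 RPKM in siNC replicates 1 to 3 and at 99.2, 122 and 97.4 RPKM in siQk replicates 1 to 3. All siQk libraries lay above all siNC libraries, with siQk replicate 2 the highest. The means were 79.0 ± 5.86 and 106 ± 13.6 RPKM (SD, n = 3), or 134% of siNC, and the log2 fold change was 0.40 (SE 0.10). It was 0.29 without siQk replicate 2, the lowest value on leaving out any library. No window of *Oat* occurred without a mismatch in another annotated transcript, whereas windows of *Ass1* did. Copies that are not annotated, or that differ in a base of the window, were not searched.

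**Figure D3:**
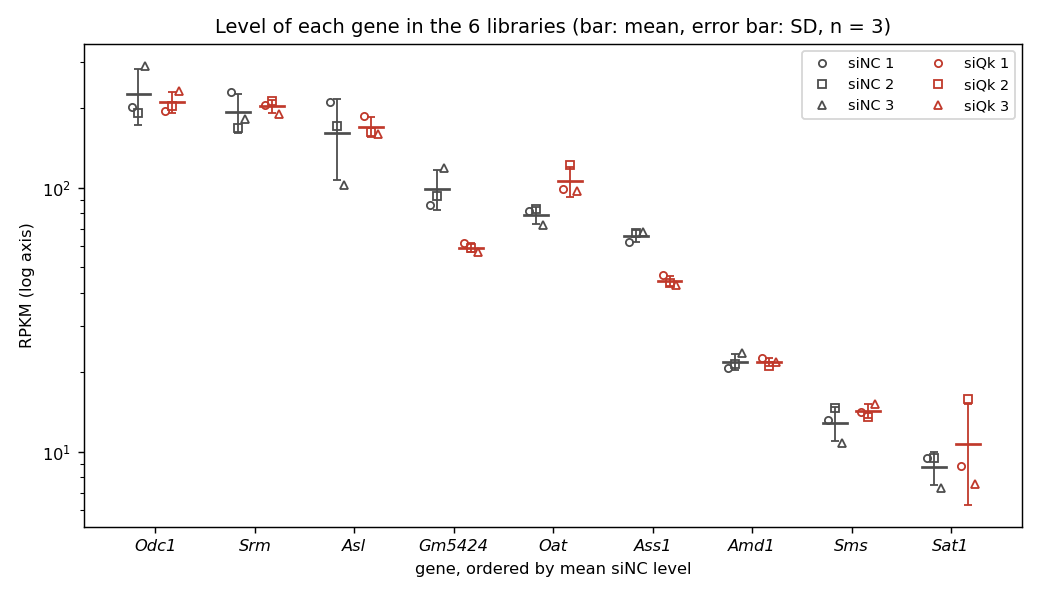
The y axis is RPKM on a log axis and the x axis the 9 genes in order of their mean siNC level, with open symbols for the libraries (grey siNC, red siQk), bars for the mean and error bars for the SD (n = 3). Ass1 and Gm5424 separate downward in siQk and Oat upward, and the remaining 6 genes overlap.

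The levels per length spanned a wide range. In siNC the order of mean RPKM was *Odc1* (227 ± 53.9), *Srm* (193 ± 32.4), *Asl* (161 ± 54.7), *Gm5424* (99.3 ± 17.1), *Oat* (79.0 ± 5.86), *Ass1* (65.8 ± 3.27), *Amd1* (21.9 ± 1.5), *Sms* (12.9 ± 1.92) and *Sat1* (8.73 ± 1.25), each as mean ± SD with n = 3. Each neighbouring pair from *Odc1* down to *Oat* overlapped within 1 SD, and each pair from *Oat* down to *Sat1* did not. The first 3 were above the level of at least 96.8% of the genes tested. In siQk *Oat* (106 ± 13.6) stood above *Gm5424* (59.3 ± 2.38), the only exchange of places between the orders, and the other 7 genes kept their rank. The place of *Ass1* rests on the short length of 478 bases over which the files count it. Counted lengths also differed from the transcript for *Asl* (1547 bases, 64.1% of Asl-203) and *Odc1* (2547 bases, 115% of Odc1-201). The SD was wider in siNC than in siQk for 7 of the 9 genes, all but *Sat1* and *Oat*.

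The core of the Quaking response element, ACTAAC in DNA letters, was searched on the sense strand of the longest coding transcript of each gene, since the depleted protein binds it. Related forms of the element, such as ACTAAT, were not searched. It occurred in 1 of the 8 coding genes (12.5%), beside 26.9% of 18560 coding transcripts of the listed genes, and not in *Ass1*. The match was in the 3′ UTR of *Odc1*, in exon 12 (GRCm38, chr12:17550957-17550986, plus strand), and is shown with 12 bases on either side and the motif in capitals. A match is a description of the letters and not a binding site.
Odc1: ttcagacatgatACTAACgtgtgcccctca

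The wider arginine and polyamine pathway was described with 51 further genes listed by role, of which 40 passed the filter on low values. The edgeR quasi-likelihood test called 0 of these 40, as did the edgeR exact test and DESeq2. At an unadjusted p under 0.05 there was 1 gene, *Slc3a2*, beside 2.89% of all genes tested. There were 3 genes with the replicate block (*Slc3a2*, *Slc7a1* and *Aldh18a1*), where 448 of all 12665 genes had such a p, and 0 without siNC replicate 3, siQk replicate 1 or siQk replicate 3. Without siNC replicate 1 *Slc3a2* had a quasi-likelihood p of 0.157, and the 1 gene was *Enoph1*, while without siQk replicate 2 it was *Slc18b1*. Their median log2 fold change was -0.022, 21 of the 40 genes being lower and 19 higher in siQk. That median went from -0.11 without siNC replicate 3 to 0.11 without siNC replicate 1. All 3 siQk libraries lay above all siNC libraries for 2 of the 40 genes, *Atp13a3* and *Enoph1*, and below them for 0, beside 4.45% above and 4.07% below over all genes tested.

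Among arginine transporters 6 of 7 genes were tested, 0 were called, and 5 had fold changes below 0, beside 6227 of all 12665 genes tested. Their median was -0.34 on the log2 scale, and it was -0.22 without siNC replicate 1 and -0.23 without siQk replicate 2. *Slc7a7* turned to 0.058 without siNC replicate 3 and to 0.091 without siQk replicate 3. *Slc3a2*, the heavy chain shared by several amino acid transporters, was the most abundant of them at 243 ± 44.4 RPKM (SD, n = 3) in siNC and 185 ± 22.8 in siQk. On the log2 scale it differed by -0.42 (SE 0.20; edgeR quasi-likelihood p 0.0454, adjusted p 1.0). Among genes of the urea cycle and of nitric oxide synthesis 6 of 11 were tested and 0 were called. *Slc25a12*, a mitochondrial aspartate and glutamate carrier, was the most abundant (57.2 ± 9.6 RPKM in siNC, log2 fold change -0.14, SE 0.16), and its fold change was -0.26 without siNC replicate 1 and -0.048 without siNC replicate 2. *Slc25a15*, the mitochondrial ornithine carrier, was at 4.77 ± 0.990 RPKM (SD, n = 3) in siNC and 6.02 ± 1.40 in siQk, with groups that overlapped (log2 fold change 0.32, SE 0.27). For *Slc25a15* this was 0.49 without siQk replicate 2. It became 0.17 when siQk replicate 3 was left out and 0.18 when siNC replicate 3 was. *Otc*, *Slc25a13*, *Slc7a2*, *Mat1a*, *Satl1* and *Aoc1* (listed as *Abp1*) were at 0 counts in all 6 libraries. A count of 0 allows up to 3 counts, or 0.0698 CPM in the smallest library. The other 5 genes not tested had at most 39 counts in any library.

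Of the genes that use arginine for creatine or agmatine, 2 of 3 were tested and 0 were called. These were *Gamt*, which completes creatine, at 15.2 ± 5.95 RPKM in siNC (log2 fold change -0.086, SE 0.85), and *Gatm*, which starts it, at 11.6 ± 3.63 RPKM (log2 fold change 0.22, SE 0.32). *Gatm* turned to -0.042 on the log2 scale without siNC replicate 2, where it was at 7.45 RPKM. *Gamt* was at 3.98 RPKM in siQk replicate 2, below the 8.58 to 23.0 RPKM of the other libraries, and its log2 fold change was 0.36 without that library. The value of *Gamt* was -0.59 without siQk replicate 1 and -0.36 without siNC replicate 3. Antizymes, which bind ornithine decarboxylase and send it for degradation, and the inhibitors of antizymes were all tested, and 0 of 5 were called. *Azin1*, an antizyme inhibitor, was the most abundant, at 64.4 ± 4.61 RPKM (SD, n = 3) in siNC and 66.8 ± 1.69 in siQk, a log2 fold change of 0.027 (SE 0.064). *Azin2* (listed as *Adc*) had the smallest p of these, at a log2 fold change of -0.50 (SE 0.74). That value rests on siQk replicate 2, at 2.08 RPKM where the other libraries had 8.32 to 11.4 RPKM, and it was -0.067 without it. The value of *Azin1* turned to -0.029 without siNC replicate 1 and to -0.0032 without siQk replicate 3.

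For polyamine oxidation, acetylation and transport 6 of 8 genes were tested and 0 were called. *Atp13a3*, a P5-type transport ATPase, was at 52.4 ± 4.61 RPKM (SD, n = 3) in siNC and 59.8 ± 1.57 in siQk, a log2 fold change of 0.16 (SE 0.087) that was 0.088 without siNC replicate 1. *Slc18b1* (listed as *1110021L09Rik*), a vesicular polyamine transporter, had a log2 fold change of 0.37 (SE 0.18). For S-adenosylmethionine and methionine salvage 7 of 9 genes were tested and 0 were called. *Mat2a*, which makes S-adenosylmethionine, was at 93.3 ± 10.4 RPKM (SD, n = 3) in siNC and 119 ± 30.2 in siQk, a log2 fold change of 0.32 (SE 0.22). It was 0.092 without siQk replicate 2, where *Mat2a* was at 153 RPKM against 104 and 98.7 RPKM in siQk replicates 1 and 3. *Enoph1*, an enzyme of methionine salvage, was at 25.2 ± 3.64 and 32.5 ± 3.55 RPKM, a log2 fold change of 0.34 (SE 0.14).

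The 4 genes of the hypusine pathway, through which spermidine modifies the translation factor eIF5A, were all tested and 0 were called. *Eif5a* was the most abundant gene of the whole pathway, at 451 ± 47.3 RPKM (SD, n = 3) in siNC and 438 ± 29.6 in siQk, a log2 fold change of -0.065 (SE 0.11). *Dohh*, which completes hypusine, had a log2 fold change of -0.13 (SE 0.20). Without siNC replicate 1 the values turned to 0.012 for *Eif5a* and 0.010 for *Dohh*. *Eif5a* was at -0.16 without siNC replicate 2, and *Dohh* at -0.30 without siNC replicate 3. Of the 4 genes that link ornithine with proline, 0 were called. *Aldh18a1*, which makes the intermediate shared with *Oat*, was the most abundant at 106 ± 21.5 RPKM (SD, n = 3) in siNC and 80.1 ± 28.1 in siQk, a log2 fold change of -0.43 (SE 0.40). Here too siQk replicate 2 was the lowest library, at 47.7 RPKM against 97.5 and 95.1 RPKM in siQk replicates 1 and 3, and the log2 fold change of *Aldh18a1* was -0.17 without it.

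**Figure D4:**
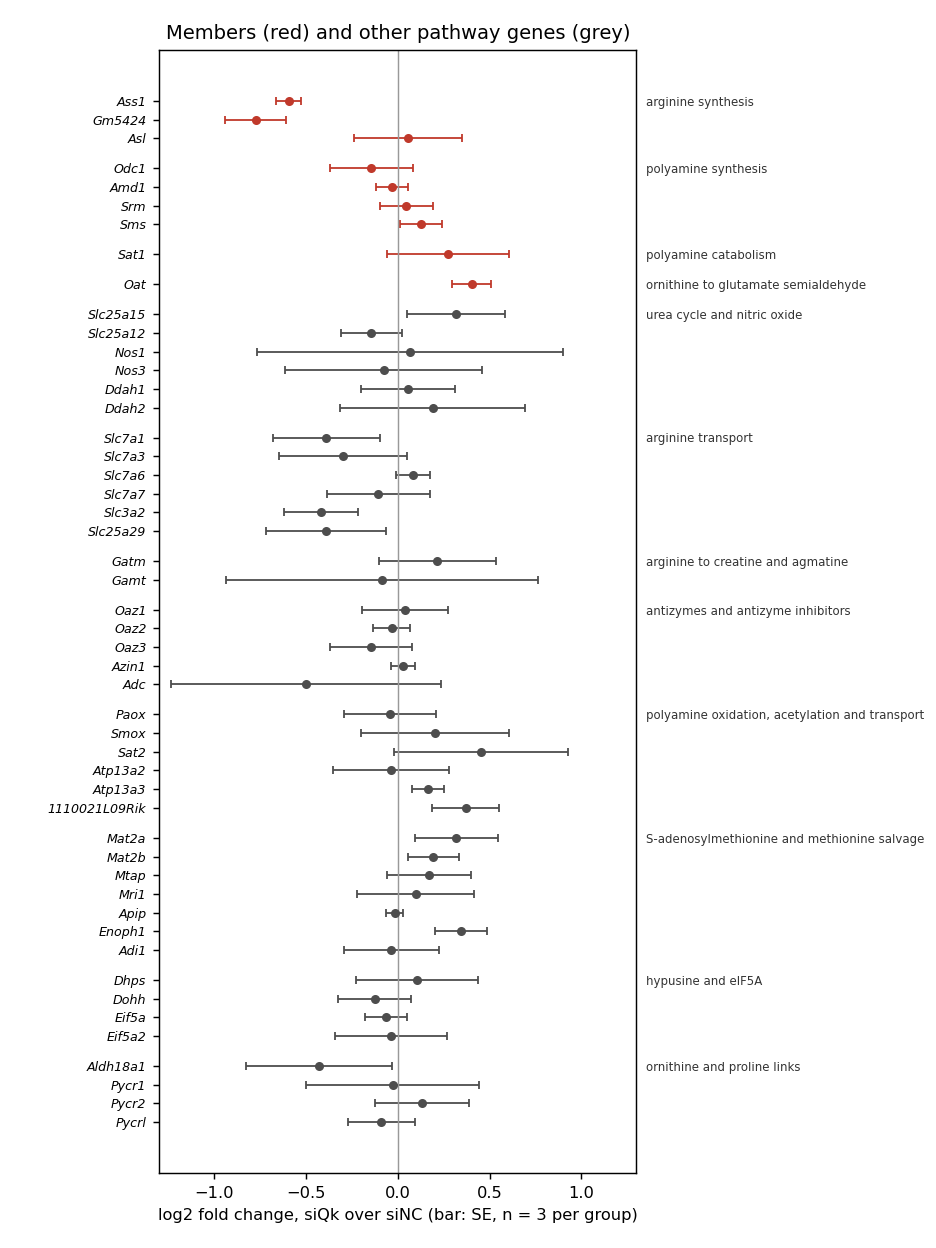
The x axis is the log2 fold change of siQk over siNC with its SE (n = 3 per group), and the rows are 9 genes of the group (red) and the 40 other pathway genes tested (grey), by role and under the symbols of the files. Ass1 and Gm5424 are at -0.59 and -0.77 and Oat is at 0.40.

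The genes most like *Ass1* over the 6 libraries were named by the root mean square difference between their log2 CPM and that of *Ass1*, each taken from its own mean. The 5 nearest of the genes tested were *Hook3* (0.085), *Mpped1* (0.085), *Apbb2* (0.088), *Kctd2* (0.088) and *Ypel2* (0.089), where the median gene differed by 0.39. *Hook3*, an adaptor that links cargo to dynein, was at 5.44, 6.60 and 6.88 RPKM in siNC replicates 1 to 3 and at 4.11, 3.80 and 3.87 RPKM in siQk replicates 1 to 3. *Gm5424* was 36th in this order (0.14), behind genes that share no window of 75 bases with *Ass1*, and siNC replicate 3 was higher for it than for *Ass1*. In all, 246 genes were within 0.2 of *Ass1*. The measure takes in the difference between the groups as well as the spread within them, so genes lower in siQk come near by construction.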

How the data were processed

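Poly-A RNA of NSC-34 cells was sequenced by the authors in 6 libraries as pairs of 75-base reads (TruSeq version 2 kit). Reads were aligned with OLego to mm10 (per the submitters' processing notes) and counted per gene with Quantas. The deposited files hold expected counts, exon lengths and RPKM values, which the authors scaled by exon length and library total. RPKM was used for levels. Expected counts were rounded, scaled by TMM and filtered at a mean log2 CPM above 0 (12665 of 23038 genes). siQk was compared with siNC in the edgeR 4.0.16 quasi-likelihood test (R 4.3.3), all 6 libraries in 1 fit, Benjamini-Hochberg adjustment over all genes tested, and called at p under 0.01 and adjusted p under 0.1. SEs come from log2 CPM (prior count 2) between libraries, whose spread exceeded counting error.

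The genes and lists were chosen with earlier results of these data known. Named are 9 genes of the group, *Qk*, in each role list the gene with the highest siNC level and that with the smallest p, and the 5 genes nearest to *Ass1*. 1 gene of the group, 1 of the role lists and 1 list of markers are not reported here. Other genes were named after their values were seen. Older symbols stood in for 4 list members. Sequences and positions come from GENCODE M21 (GRCm38), matched by symbol for 9 of 9 genes, and were aligned with Biopython 1.88. The files carry no coordinates. Alternatives were other scalings, filters and tests (DESeq2 1.42.0), a replicate block, summed counts and leaving out each library. Scripts were tested on simulated data.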

Additional observations from a re-analysis of the deposited data

How the results depend on the processing

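The number of genes called changed was 1 under the other scalings and filters and with the replicate block. The edgeR exact test called 5 genes, and DESeq2 called 19. It ran from 0 to 1 over the fits that each left out a library. It was 0 without siNC replicate 1, where *Qk* had a quasi-likelihood adjusted p of 0.125 and 538 genes had an unadjusted p under 0.05. The median of the 9 genes was 0.14 there and -0.066 without siNC replicate 2, and it was also below 0 without siQk replicate 1 or 2. *Ass1* stayed between -0.73 and -0.54 over 15 alternatives and *Gm5424* between -0.87 and -0.59 over 14, with *Gm5424* called in DESeq2 alone. Among these alternatives, rounding counts down left the counts of both as they were, since they were whole numbers. *Oat* stayed between 0.29 and 0.45 and *Sms* between 0.040 and 0.20 over 13. With a library left out, *Asl* ran from -0.17 to 0.29, *Odc1* from -0.28 to 0.10, *Amd1* from -0.079 to 0.051, *Srm* from -0.066 to 0.18 and *Sat1* from -0.11 to 0.46, so the sign of these 5 depends on single libraries. The cause was not tested. The ratio of *Gm5424* to *Ass1* was 3.35 by counts and 1.42 by RPKM, since RPKM divides by unequal exon lengths. Of the 40 other pathway genes, 0 were called in every alternative. In the order of levels 7 to 9 of 9 genes kept their rank on leaving out an siNC library, and 7 in siQk, alternatives added after the data were seen.

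The groups share replicate numbers. Same-numbered libraries deviated from their group means with correlations of 0.213, 0.018 and -0.17 (replicates 1, 2 and 3, over genes), and the numbers are treated as names that pair nothing. The paper names 3 independent cultures and does not say whether same-numbered libraries came from the same culture. With the replicate block *Ass1* was at -0.59, *Gm5424* at -0.75 and *Oat* at 0.40, and no call changed. With 3 libraries a group, the spread between libraries and not the depth limits these comparisons.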
